A study of Saccharomyces cerevisiae with 4 samples.

Results

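The 10 genes described here are the yeast genes of sulfate assimilation, chosen by name and identifier out of 6418 genes in the tables: SUL1 (YBR294W), SUL2 (YLR092W), MET3 (YJR010W), MET14 (YKL001C), MET16 (YPR167C), MET5 (YJR137C), MET10 (YFR030W), MET2 (YNL277W), MET17 (YLR303W) and MET28 (YIR017C). The study built artificial transcription activators from CRISPR proteins of the Cas12 type and measured mRNA in 4 strains of Saccharomyces cerevisiae, with 1 RNA-seq library per strain. In strain byMM1827 the protein denAsCas12a worked with the scaffold RNA ScRNA-5′, a guide RNA that carries a hairpin for the activator, aimed at the lexOpR sites of the reporter and at pHED1. Its control byMM1777 had the same protein with no ScRNA. In strain byMM1832 the protein dCas12e worked with ScRNA-L1, aimed at lexOpR and at pGAL7, and its control byMM1736 had dCas12e with no ScRNA. All 4 strains derived from CEN.PK2-1C, of mating type MATa, with the alleles trp1-289, ura3-52 and leu2-3_112 beside his3D1, and with SUC2 and MAL2-8c. All made the MCP-VP64 fusion protein, the Cas protein under pGPD and the reporter 3xlexOpR-yEGFP. The strains with ScRNAs also gained the HIS3 marker of the ScRNA plasmid, and the control strains differed from each other in both the Cas protein and the reporter plasmid, so a difference within or between pairs cannot be told apart from these.

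Sulfate assimilation takes sulfate from the medium and turns it into the sulfur of methionine and cysteine. The permeases Sul1 and Sul2 bring sulfate into the cell, the enzymes Met3 and Met14 activate it with ATP, Met16 reduces it to sulfite and the sulfite reductase made of Met5 and Met10 reduces sulfite to sulfide. Met2 acetylates homoserine, and Met17 joins the product with sulfide to give homocysteine, the precursor of methionine. The pathway is known for its control by Met4, an activator that cannot bind DNA by itself and is brought to promoters by Cbf1, Met28, Met31 and Met32, and that is held inactive through Met30 when methionine and cysteine are ample. Short promoter sequences bound by these factors are thus a known feature of the regulon.

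The promoter stretches of 5 of the genes are shown for the letters of these factors: MET28, MET3 and MET2 had the lowest ratios of byMM1832 over byMM1736 among the 10 genes, and MET16 and MET10 lay near the middle. They were read from the reference genome R64, which is strain S288C and not CEN.PK2-1C, and run 5′ to 3′ on the strand of the gene. The capitals mark the Cbf1 letters TCACGTG and the Met31 and Met32 letters CTGTGG or AACTGTGG, on either strand. The stretches lie upstream of the start codon, from -299 to -131 for MET28 (chrIX:384250-384418, minus strand), from -393 to -231 for MET3 (chrX:455846-456008, plus strand), from -369 to -333 for MET2 (chrXIV:116980-117016, plus strand), from -194 to -158 for MET16 (chrXVI:877790-877826, minus strand) and from -264 to -192 for MET10 (chrVI:213048-213120, plus strand), and each reaches up to 15 bases past its outermost marked letters.
MET28: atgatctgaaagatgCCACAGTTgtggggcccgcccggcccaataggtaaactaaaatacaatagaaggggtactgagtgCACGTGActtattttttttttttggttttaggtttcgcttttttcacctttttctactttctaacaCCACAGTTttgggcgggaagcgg
MET3: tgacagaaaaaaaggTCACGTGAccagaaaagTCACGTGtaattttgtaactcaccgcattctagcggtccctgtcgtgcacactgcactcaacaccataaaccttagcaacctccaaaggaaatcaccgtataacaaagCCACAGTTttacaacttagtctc
MET2: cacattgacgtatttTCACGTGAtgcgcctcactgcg
MET16: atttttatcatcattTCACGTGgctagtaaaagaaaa
MET10: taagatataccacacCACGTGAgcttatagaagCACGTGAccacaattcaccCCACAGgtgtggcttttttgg

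In these stretches MET3 and MET10 each held 2 matches to the Cbf1 letters, and MET28, MET2 and MET16 held 1 each. MET28 held a match to the longer Met31 and Met32 letters on both sides of its Cbf1 match. Within 500 bases before the start codon, TCACGTG on either strand was found in 9 of the 10 genes (all but SUL1) and in 274 of 6025 promoters of the reference, which is 4.55%. Its palindromic core CACGTG, which every such match contains, was found in the same 9 genes and in 6.21% of promoters. CTGTGG was found in 6 genes (SUL1, SUL2, MET3, MET10, MET17 and MET28) and in 13.1% of promoters, and the longer AACTGTGG, which contains it, in 4 genes (SUL2, MET3, MET17 and MET28) and in 1.68%. With 300 bases in place of 500, TCACGTG was found in 5 of the 10 genes and in 2.57% of promoters. The Gcn4 letters TGACTC, recognised by the general activator of amino acid genes, stood before SUL1, MET16, MET5 and MET28 and in 12.6% of promoters, and TATAAA before 6 of the 10 genes and in 60.6%. A match is a description of the reference sequence and does not show that a factor was bound in these strains.

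The libraries held from 37275559 counts (byMM1777) to 54013763 counts (byMM1827), and all 10 genes passed the minimum of a mean of 10 counts over the 4 libraries that 6010 genes passed. Their counts lay between 706 (MET28 in byMM1832) and 169800 (MET17 in byMM1827). Levels are given in TPM, a unit of relative transcript abundance that divides the counts by gene length and by library depth. Genes can thus be set side by side within a library. Between libraries a ratio also depends on the scaling, so other scalings are given below. The a-cell genes MFA1, MFA2 and STE2 stood at 167 TPM or more in every library and the alpha-cell genes MFALPHA1, MFALPHA2 and STE3 at 23.2 TPM or less, as the label MATa states. The targeted gene HED1 had 30.3 TPM in byMM1827 and 15.8 TPM in byMM1777, a ratio of 1.92. In the dCas12e pair, where it was not a target, HED1 had 8.43 TPM in byMM1832 and 16.6 TPM in byMM1736, a ratio of 0.508. The targeted gene GAL7 had 3.53 TPM in byMM1832 and 2.05 TPM in byMM1736, a ratio of 1.72, and 2.70 TPM in byMM1827 against 1.62 TPM in byMM1777, where it was not a target. With 1 library per strain there is no replicate error, so no test was made. Each ratio carries a 95% Clopper-Pearson interval from the counts, which covers counting error only and compares libraries, not conditions. In bulk RNA, fewer cells with a transcript and less of it per cell cannot be told apart.

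The plot of levels shows every gene in every library on a log scale. MET17 was the highest of the 10 in every library, with 1495 to 2302 TPM, and MET14 followed with 207 to 327 TPM. SUL1 was the lowest in every library, with 12.5 to 17.2 TPM. Between them the ranges of neighbours overlapped: MET3, MET10, MET2 and MET16 lay between 73.8 and 216 TPM, and SUL2, MET5 and MET28 between 25.8 and 79.8 TPM. Within the library of byMM1827 MET17 ranked 49 among all genes by TPM, against 79 in byMM1777.

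**Figure D1:**
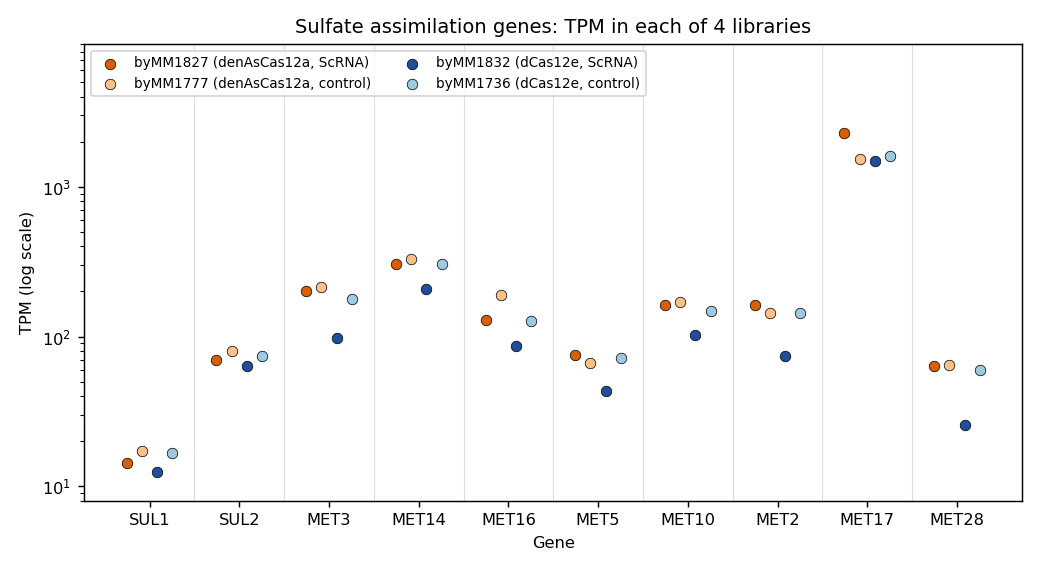
TPM (log scale) of the 10 sulfate assimilation genes in the 4 libraries, 1 point per library, with denAsCas12a strains in orange, dCas12e strains in blue and the strain with ScRNAs in the darker shade. The dark blue point of byMM1832 is the lowest of the 4 for each gene, from 12.5 TPM for SUL1 to 1495 TPM for MET17.

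In the presence of dCas12e:ScRNA-L1, all 10 genes had a lower TPM in byMM1832 than in byMM1736, where 46.0% of the 6010 genes did. The ratios ran from 0.433 for MET28, the regulatory cofactor, to 0.928 for MET17, and all 10 counting intervals lay under 1. MET28 alone was lower by 2-fold or more, beside 2.65% of all genes, and MET28, MET2, MET3 and MET5 were lower by 1.5-fold or more, beside 6.97%. No gene of the 10 was higher by 1.5-fold, which 4.48% of all genes were, or by 2-fold, which 0.849% were. The median log2 ratio was -0.56 over the 10 genes and 0.03 over all genes.

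In the presence of denAsCas12a:ScRNA-5′ the same genes lay on both sides of the control. Of the 10 genes, 7 had a lower TPM in byMM1827 than in byMM1777, where 71.6% of all genes did, and MET5, MET2 and MET17 had a higher one. In TPM none was past 1.5-fold either way, beside 5.71% of all genes lower and 2.38% higher by 1.5-fold, and 0.632% lower and 0.765% higher by 2-fold. The median log2 ratio was -0.09 over the 10 genes and -0.16 over all genes. The direction of the small ratios in this pair depended on the scaling. With TMM factors, which moved the median of all genes to 0.00, 7 of the 10 genes were higher in byMM1827. SUL1, SUL2 and MET16 were lower, beside 2992 of the 6010 genes. Relative to ACT1 only MET17 was higher, where 5352 of the 6010 genes were lower. MET17 was past 1.5-fold higher as counts per total count, with TMM (1.67) and with median-ratio factors (1.67). The share of all genes higher by 1.5-fold was not counted under these scalings, and the 2.38% above holds for TPM only. MET16 was past 1.5-fold lower relative to ACT1 (0.586), beside 21% of all genes. MET5, MET2 and MET17 had intervals over 1 in this pair and under 1 in the dCas12e pair, beside 5.54% of all genes, and none of the 10 had the reverse, beside 21.5%. Over all genes TMM factors gave 18 lower and 61 higher by 2-fold in this pair, against 38 lower and 46 higher in TPM.

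**Figure D2:**
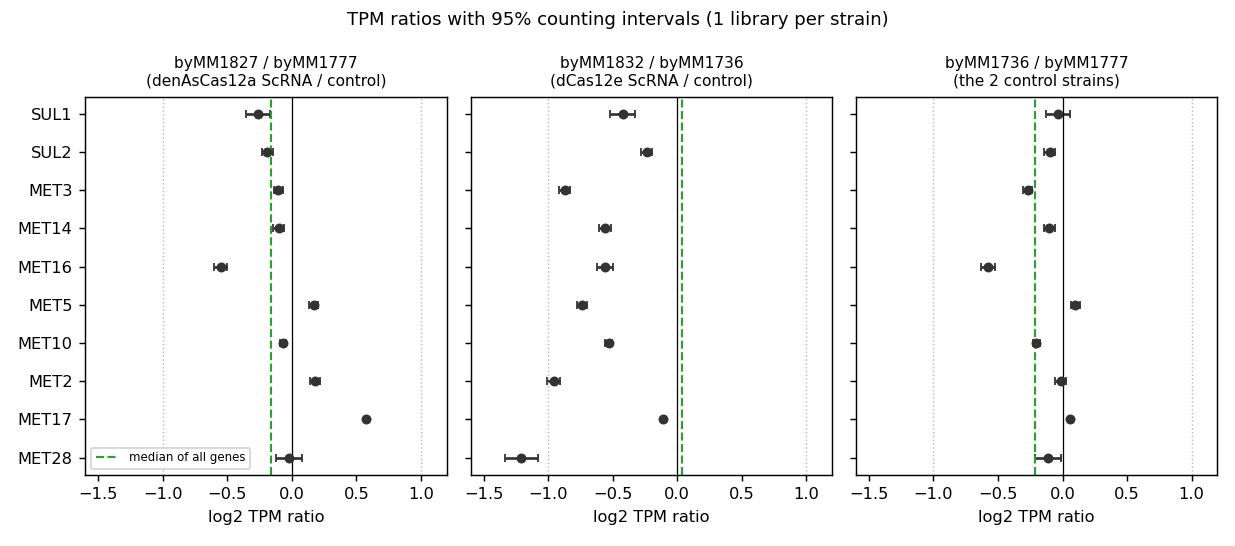
Log2 TPM ratio of each gene with its 95% counting interval, for byMM1827 over byMM1777, byMM1832 over byMM1736 and the control strains byMM1736 over byMM1777, with the median of all genes as a dashed green line and 2-fold as dotted lines. All 10 points lie left of 0 and of the all-gene median of 0.03 in the dCas12e panel, with MET28 farthest at -1.21, and scatter around the median of -0.16 in the denAsCas12a panel.

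The sulfate permeases changed least after MET17 in the dCas12e pair. SUL2 had 63.2 TPM in byMM1832 against 74.5 TPM in byMM1736 (ratio 0.849, interval 0.825 to 0.874), and 69.9 TPM in byMM1827 against 79.8 TPM in byMM1777 (0.876, 0.851 to 0.902). SUL1 had 12.5 TPM in byMM1832 against 16.8 TPM in byMM1736 (0.746, 0.699 to 0.796), and 14.4 TPM in byMM1827 against 17.2 TPM in byMM1777 (0.832, 0.780 to 0.888). Both permease genes were thus lower in TPM in both strains with ScRNAs. In the denAsCas12a pair 71.6% of all genes were also lower in TPM, with a median log2 ratio of -0.16. With TMM factors the ratios in that pair were 0.932 for SUL1 and 0.981 for SUL2, against 0.728 and 0.829 in the dCas12e pair. SUL2 had 4.43 to 5.04 times the TPM of SUL1 within each of the 4 libraries.

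Of the genes that activate and first reduce sulfate, MET3, which encodes ATP sulfurylase, showed the largest fold. MET3 had 97.8 TPM in byMM1832 against 179 TPM in byMM1736 (0.546, 0.531 to 0.562). In the other pair it had 201 TPM in byMM1827 against 216 TPM in byMM1777 (0.930, 0.909 to 0.952). The low library was byMM1832, and the other 3 lay between 179 and 216 TPM. MET14, which encodes the kinase of adenylyl sulfate, had 207 TPM in byMM1832 against 305 TPM in byMM1736 (0.679, 0.657 to 0.701). It had 305 TPM in byMM1827 against 327 TPM in byMM1777 (0.932, 0.905 to 0.960), so that the 3 libraries other than byMM1832 lay within 1.07-fold of each other. MET16, the reductase that makes sulfite, had a different pattern. It had 86.0 TPM in byMM1832 against 127 TPM in byMM1736 (0.679, 0.650 to 0.710), and 129 TPM in byMM1827 against 189 TPM in byMM1777 (0.682, 0.657 to 0.708). MET16 was the gene of the 10 with the lowest ratio in the denAsCas12a pair, and the control strains differed from each other by as much, with a ratio of 0.671 for byMM1736 over byMM1777.

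The sulfite reductase genes were both lower in byMM1832. MET5, the beta subunit, had 43.0 TPM in byMM1832 against 71.7 TPM in byMM1736 (0.600, 0.585 to 0.616), and 75.2 TPM in byMM1827 against 66.9 TPM in byMM1777 (1.12, 1.10 to 1.15). MET10, the alpha subunit, had 102 TPM in byMM1832 against 147 TPM in byMM1736 (0.692, 0.678 to 0.706), and 162 TPM in byMM1827 against 169 TPM in byMM1777 (0.953, 0.936 to 0.971). The 2 subunit genes kept a ratio of MET10 to MET5 between 2.05 and 2.53 over the 4 libraries.

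MET2 and MET17, whose enzymes make and use O-acetylhomoserine, diverged from each other. MET2 had 73.8 TPM in byMM1832 against 143 TPM in byMM1736 (0.515, 0.498 to 0.532), and 164 TPM in byMM1827 against 145 TPM in byMM1777 (1.13, 1.10 to 1.16). MET17 had 1495 TPM in byMM1832 against 1611 TPM in byMM1736 (0.928, 0.920 to 0.936), and 2302 TPM in byMM1827 against 1544 TPM in byMM1777 (1.49, 1.48 to 1.5). MET17 thus had its high library in byMM1827, while its other 3 libraries were close to each other, and MET2 had its low library in byMM1832. Within the libraries the ratio of MET17 to MET2 was 20.3 in byMM1832 and 11.2 in byMM1736, and 14.1 in byMM1827 and 10.7 in byMM1777. The end of MET17 (chromosome XII, 732542 to 733876) that holds its start overlaps YLR302C (732191 to 732553), and whether counting used strand is not given, so reads over the shared bases cannot be assigned. YLR302C had 33.4 TPM in byMM1827 and 11.3 TPM in byMM1777, low beside MET17. The other 9 genes overlapped no annotated gene, and all 10 had no 31-base word that occurs again in the reference genome.

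MET28, the bZIP cofactor that joins Cbf1 and Met4 at promoters, showed the lowest ratio of all 10 genes. It had 25.8 TPM in byMM1832 against 59.7 TPM in byMM1736 (0.433, 0.396 to 0.472). It had 63.4 TPM in byMM1827 against 64.5 TPM in byMM1777 (0.983, 0.918 to 1.05), a difference not detectable beyond counting error. The 3 libraries other than byMM1832 lay within 1.08-fold of each other.

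Together the 10 genes took 0.221% of the TPM in byMM1832 and 0.274% in byMM1736, and 0.349% in byMM1827 and 0.282% in byMM1777. The higher sum in byMM1827 came from MET17. Without it the other 9 genes summed to 711 TPM in byMM1832 and 1124 TPM in byMM1736, and to 1182 TPM in byMM1827 and 1274 TPM in byMM1777. MET17 alone made up 67.8% of the sum in byMM1832 and 58.9% in byMM1736, and 66.1% in byMM1827 and 54.8% in byMM1777.

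The remaining comparisons set the control strains, and the strains with ScRNAs, against each other. The control strains, byMM1736 over byMM1777, had a ratio under 1 for 8 of the 10 genes, beside 76.5% of all genes, with a median log2 ratio of -0.10 against -0.22 over all genes. None of the 10 was past 1.5-fold between the controls, beside 11.0% of genes lower and 2.51% higher by 1.5-fold, and 1.08% lower and 0.799% higher by 2-fold. With TMM factors 8 of the 10 were higher in byMM1736, where 2995 of the 6010 genes were lower. By 2-fold, TMM factors gave 29 lower and 77 higher over all genes, against 65 lower and 48 higher in TPM. Between the strains with ScRNAs, byMM1832 over byMM1827, all 10 ratios were under 1, beside 53.9% of all genes. In that comparison MET3, MET2 and MET28 were lower by 2-fold or more, beside 3.33%, and 6 of the 10 by 1.5-fold, beside 9.10%, with 0.965% of all genes higher by 2-fold and 4.16% by 1.5-fold. These comparisons share libraries with the pairs above and add no independent evidence. The library of byMM1832 had the lowest TPM of the 4 for 10 of 10 genes, and for 37.0% of the 6010 genes. Against the lowest of the other 3 libraries its ratio ran from 0.433 for MET28 and 0.515 for MET2 to 0.904 for SUL2 and 0.968 for MET17, so the last gene was only slightly below the others.

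The motif plot sets the promoter matches beside the ratio of byMM1832 over byMM1736. SUL1, the gene with no match to the Cbf1 letters, had a log2 ratio of -0.42, between those of SUL2 (-0.24) and MET10 (-0.53), both of which held 2 matches. MET28 (-1.21) and MET17 (-0.11), at the ends of the range, each held 1 Cbf1 match. The longer Met31 and Met32 letters began at -284 and at -153 before MET28, and at -276 alone before MET17. The number of matches thus did not order the 10 genes. Among other genes of the genome with TCACGTG in the same window, 262 in number, the median log2 ratio of byMM1832 over byMM1736 was -0.01 and 8.78% were lower by 1.5-fold, against 0.04 and 6.69% for the 5604 genes without it.

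**Figure D3:**
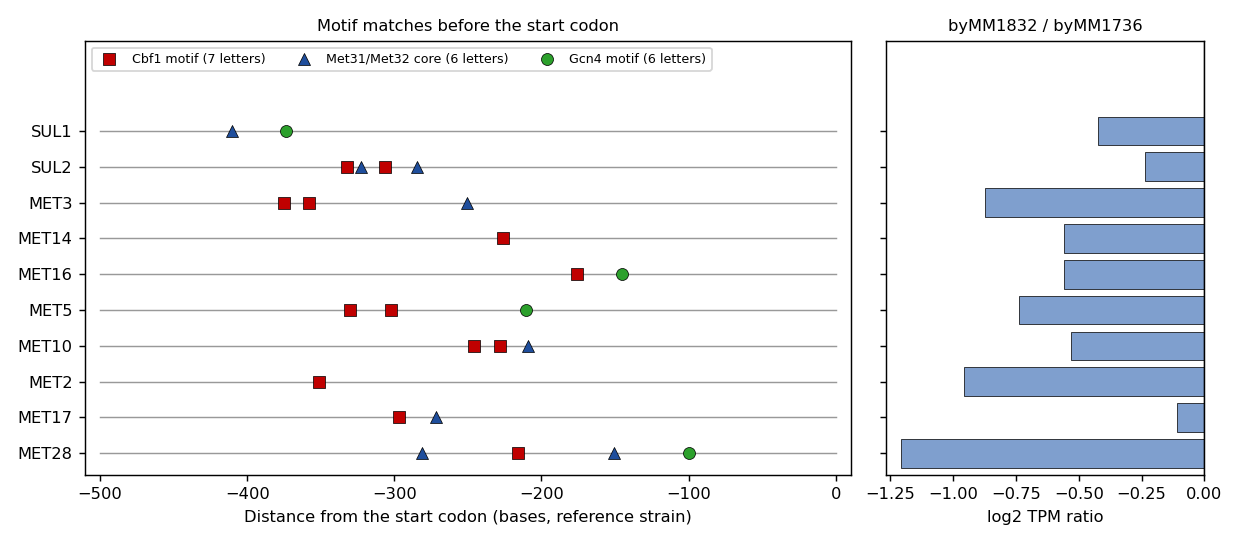
Left, positions of matches to the Cbf1 letters (red squares), the Met31 and Met32 core (blue triangles) and the Gcn4 letters (green circles) in the 500 bases before each start codon of the reference strain, on either strand. Right, log2 TPM ratio of byMM1832 over byMM1736 as bars, which run from -0.11 for MET17 to -1.21 for MET28 with no order by number of matches.

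In the dCas12e pair the lists of neighbouring sulfur pathways had medians nearer to that of all genes than the 10 genes had. Of 50 genes in 8 lists, 49 had enough counts (the putative permease gene SEO1 had no counts), and their median log2 ratio was -0.03 for byMM1832 over byMM1736 and -0.07 for byMM1827 over byMM1777. In the dCas12e pair 1 of the 49 was lower by 2-fold, beside 2.65% of all genes. By 1.5-fold 6 were lower (MET8, MET31, STR3, SSU1, JLP1 and UTR4), beside 6.97%, and 1 was higher (GSH2), beside 4.48%, with JLP1 and GSH2 named after their values were seen. These shares were not tested. In the denAsCas12a pair none was past 1.5-fold in TPM, beside 5.71% of all genes lower and 2.38% higher. SSU1, the sulfite exporter, was the gene past 2-fold, with 31.5 TPM in byMM1832 against 69.6 TPM in byMM1736 (0.452), and 74.8 TPM in byMM1827 against 91.2 TPM in byMM1777 (0.820). MET8, which completes the siroheme cofactor of sulfite reductase, had 99.7 TPM in byMM1832 against 173 TPM in byMM1736 (0.576), and 204 TPM in byMM1827 against 189 TPM in byMM1777 (1.08). The list of siroheme synthesis, removal of the by-product PAP and thioredoxin stood at a median of -0.27 over its 6 genes in the dCas12e pair, with 4 of them under 1. In it the thioredoxin TRX2 had a ratio of 0.692 in the dCas12e pair and 1.25 in the denAsCas12a pair, while in the dCas12e pair the other thioredoxin TRX1 had 1.13 and the reductase TRR1 1.09.

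Among the regulators MET31 had 22.2 TPM in byMM1832 against 33.8 TPM in byMM1736 (0.658), while MET4 had 24.8 TPM in byMM1832 against 25.1 TPM in byMM1736 (0.985). In the other pair MET4 had 28.6 TPM in byMM1827 against 38.6 TPM in byMM1777 (0.741), and MET31 had a ratio of 1.13. Over the 5 regulators the median was -0.03 in the dCas12e pair, beside 0.03 over all genes, while MET28, a cofactor of the same complex, stood at -1.21.

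Downstream of homocysteine, MET6, the methionine synthase, had 1016 TPM in byMM1832 against 1509 TPM in byMM1736 (0.673), and 1565 TPM in byMM1827 against 1199 TPM in byMM1777 (1.31). The methyl cycle list that holds it had a median of 0.04 in the dCas12e pair, and SAM4, which recycles S-adenosylmethionine, had a ratio of 1.19 there and 0.673 in the denAsCas12a pair. STR3, which converts cystathionine towards homocysteine, had ratios of 0.630 in the dCas12e pair and 1.47 in the denAsCas12a pair. UTR4, of methylthioadenosine salvage, had 0.615 and 1.45 in the same order of pairs. For uptake, the methionine permease gene MUP3 had 0.694 in the dCas12e pair and 1.22 in the denAsCas12a pair, and the S-adenosylmethionine permease gene SAM3 had 0.898 and 1.36 in the same order. The homoserine branch was mixed, with 2 of 5 genes under 1 and 3 over 1 in the dCas12e pair. Of the genes that make homoserine, the substrate of Met2, HOM2 had a ratio of 1.14, HOM3 of 0.789 and HOM6 of 0.918 in that pair. THR1 and THR4, which take homoserine on to threonine, had 1.10 and 1.33 there, and 0.710 and 0.934 in the denAsCas12a pair.

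The plot of the lists sets these beside lysine synthesis, an amino acid pathway outside sulfur metabolism. The median of its 7 genes on the log2 scale was -1.55 in the dCas12e pair and -0.82 in the denAsCas12a pair, with all 7 lower in both. The median of the 10 sulfate genes lay between it and those of the other sulfur lists in the dCas12e pair. The lysine genes were thus lower in the same library, and their part in the values of the 10 sulfate genes was not tested.

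**Figure D4:**
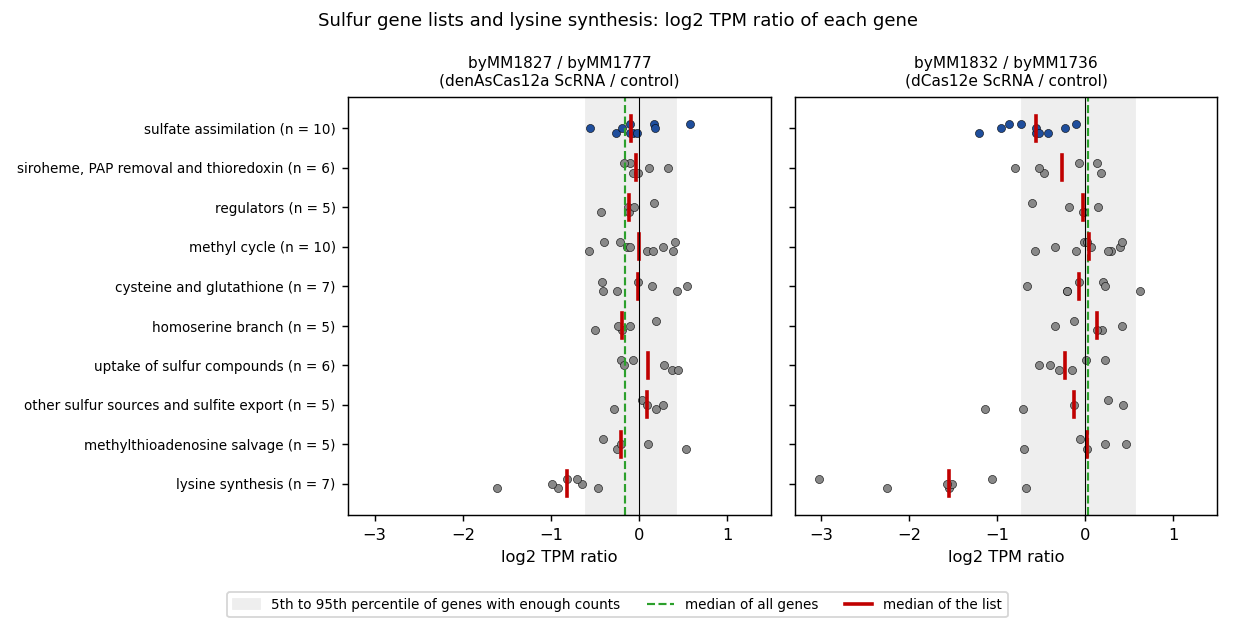
Log2 TPM ratio of each gene of the sulfate list (blue), 8 further sulfur lists and lysine synthesis (grey), for byMM1827 over byMM1777 (left) and byMM1832 over byMM1736 (right), with red bars for list medians, a dashed green line for the median of all genes and a grey band from the 5th to the 95th percentile of genes with enough counts. In the right panel the sulfate median is -0.56 and the lysine median -1.55, and the other list medians lie between -0.27 and 0.14.

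Over the 4 libraries, 5 genes had a pattern closest to the mean pattern of the 10, among the 5731 genes that averaged 100 counts or more. Closeness was the root mean square distance between log2 TPM values centred on each gene's own mean. They were YFL002W-A (0.0211), RLF2 (0.0274), YGR161W-B (0.0284), YGR050C (0.0289) and ECM13 (0.0307). Of the 10 genes themselves MET10 (0.0343) and MET14 (0.0521) were nearest to their mean pattern and MET17 (0.290) and MET28 (0.254) farthest. A distance over 4 libraries rests on 4 points that differ in strain, plasmids and depth at once. YFL002W-A and YGR161W-B hold 0 words of 31 bases that occur only once in the reference genome, so their counts are uncertain.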

How the data were processed

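RNA-seq of 4 strains of S. cerevisiae, 1 library per strain, was analysed. RNA was extracted with Trizol, and libraries were made with the Hieff NGS MaxUp kit and sequenced by Sangon Biotech. The submitters' processing notes name FastQC, Trimmomatic, HISAT2, bedtools, StringTie and DESeq2. The genome build, the annotation and the use of strand in counting are not given in the sources used here. The authors deposited whole-number counts per gene, not normalized, and a table in TPM, which divides by gene length and scales each library to nearly the same total. The authors' tables of fold changes, p-values and q-values per pair were not used. The tables hold 4 further strain columns, 2 in each, which were not used here.

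Ratios are of the deposited TPM, with no pseudocount, and 95% Clopper-Pearson intervals came from the deposited counts (scipy 1.17.1) and cover counting error only. Libraries at or under 3 counts would be set to that floor. Counts of genes past 2-fold or 1.5-fold were made over the 6010 of 6418 genes that averaged 10 counts or more, since 1 library per strain allows no test. The strains were grouped by their labels. Other scalings were TMM (edgeR 4.0.16), median-ratio factors (DESeq2 1.42.0), counts per total count and ratios to ACT1, and further alternatives were a pseudocount of 1 TPM, count minimums, thinning to the smallest library and the control of the other pair. The scripts were tested on simulated data. Of the gene identifiers, 6017 matched a locus tag of the R64 annotation, from which positions and promoters were read (500 bases before the start codon).

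Named genes were all 10 sulfate genes, each gene of the wider lists past 2-fold in a comparison or else the gene with the largest change of its list in each pair, the 5 genes nearest to the mean pattern, the targets, ACT1 and genes overlapping one of the 10. Outside this rule stand the mating-type genes, which check the label, the 5 genes nearest by correlation, and SEO1, JLP1, GSH2, TRX1, TRR1, HOM2, HOM3 and HOM6, which were named after their values were seen. The members and lists were chosen with earlier results of these data known. The 1.5-fold rule, the count of ratios under 1, the count of intervals on opposite sides and both promoter windows were chosen after seeing the data.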

Additional observations from a re-analysis of the deposited data

Results flagged for a closer look

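In 3 of the 10 sulfate genes the counting intervals lay on opposite sides of 1 in the 2 pairs, higher in byMM1827 than in byMM1777 and lower in byMM1832 than in byMM1736, which 5.54% of the 6010 genes did. The difference in log2 ratio, dCas12e pair minus denAsCas12a pair, was -1.14 for MET2, -0.90 for MET5 and -0.68 for MET17. With 1 library per strain the difference was not tested. MET17 alone of the 3 also kept its directions with counts per total count, TMM, median-ratio factors and ACT1.

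Of the 49 wider sulfur genes with enough counts, 14 had intervals on the same sides as these 3, and 10 on the reverse sides, which 21.5% of all genes had. Under the 4 other scalings 9 of the 14 and 8 of the 10 kept their directions, beside 163 of 333 and 869 of 1292 over all genes. As shares of all genes with enough counts, these were 18.4% and 16.3% of the 49, beside 2.71% and 14.5% of the 6010. Of the named genes, the difference in log2 ratio was -1.24 for UTR4, -1.22 for STR3, -0.95 for MET6, -0.86 for TRX2, -0.81 for MUP3 and -0.60 for SAM3, which kept their directions under these scalings, and -0.91 for MET8 and -0.78 for MET31, which did not. On the reverse sides it was 0.83 for SAM4 and 0.63 for THR1, which kept their directions, and 0.51 for THR4, which did not. These differences were not tested either.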

How the results depend on the processing

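No paired analysis was possible because there is 1 library per strain, and leaving out a replicate was not possible for the same reason. All 10 sulfate genes stayed lower in byMM1832 than in the control under each scaling, pseudocount, thinning and exchange of control tried. From 4 to 7 of them were past 1.5-fold. The count was 4 in TPM, beside 6.97% of all genes. It was 7 relative to ACT1, beside 9.58%, and 7 against the control of the other pair, beside 20.3%. Of all genes, 2762, 3502 and 3998 had a ratio under 1 in the same order. The higher counts thus came where more of all genes were lower too.

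For byMM1832 over byMM1736, the median log2 ratio of the 10 genes (-0.56) was -0.66 relative to ACT1, -0.70 against the control of the other pair and -0.62 as a mean. The count lower by 2-fold (1) was 2 relative to ACT1, 3 against the other control, 4 at 1.5-fold and 0 at 3-fold. Over all 6010 genes (159 in TPM) it was 192, 384, 419 and 50 in the same order. The wider sulfur lists had 6 genes lower and 1 higher at 1.5-fold, 0 lower at 3-fold, and a median (-0.03) of -0.13 relative to ACT1 and -0.10 against the other control.

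For byMM1827 over byMM1777, the median of the 10 genes (-0.09) was 0.077 with TMM, 0.080 with median-ratio factors, 0.078 against the other control, -0.30 relative to ACT1 and -0.039 as a mean. That of the wider lists (-0.07) was 0.10 with TMM and with median-ratio factors, -0.28 relative to ACT1 and 0.057 against the other control. The direction of both list medians in this pair thus depended on the scaling. For the controls, byMM1736 over byMM1777, the median (-0.10) was 0.12 with TMM and with median-ratio factors and -0.30 relative to ACT1. For byMM1832 over byMM1827, the count lower by 2-fold (3) was 6 at 1.5-fold and 0 at 3-fold, and the median (-0.64) was -0.62 with TMM, -0.61 with median-ratio factors, -0.73 relative to ACT1 and -0.71 as a mean. The cause of these shifts was not tested. The other 156 values of the list counts and medians stayed within 1.5 times the count, or between the medians of the genes' interval bounds. Some of them could not move: the count minimums kept all 10 sulfate genes, and a count of 0 stays 0 under a stricter threshold. Counts over all genes also moved, in the dCas12e pair to 384 lower and 114 higher by 2-fold against the other control (159 and 51 in TPM), and in the denAsCas12a pair to 101 lower and 27 higher relative to ACT1 (38 and 46 in TPM).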

Other observations

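By Pearson correlation over the 4 libraries in place of distance, the 5 genes nearest to the mean pattern of the sulfate genes were TSL1, YBR197C, SPG4, PAU22 and FUR4, and none of these was among the 5 nearest by distance. The names of the nearest genes thus depended on the measure. A correlation takes no account of size, and YBR197C had 107 TPM in byMM1832 and 112 TPM in byMM1736.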
